A study of Mus musculus with 4 samples.

Results

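Cathepsins are proteases, most of which work in the acid interior of lysosomes, and their messenger RNA was followed here through the cell types of the mouse lung. The genes Ctsa, Ctsb, Ctsc, Ctsd, Ctsh, Ctsk, Ctsl, Ctss, Ctsw and Ctsz were taken by symbol from the gene rows of 4 single-cell matrices, and all 10 were found among 32285 genes. The lungs came from mice with an edited Galt gene (GAL, 2 libraries) and from wild-type mice (WT, 2 libraries). The product of Galt is the uridylyltransferase that acts in the breakdown of galactose. The kind of edit, the strain, the age and the number of animals behind a library were not given in the sources used here, so a p-value here speaks only of the spread between these samples, which may be technical. Both groups were handled alike: whole lungs were rinsed, cut up and dissociated by enzymes, and single cells were captured in droplets with barcoded beads. Library values are listed throughout with GAL first and WT second, and with replicate 1 before replicate 2 in each.

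Cathepsins are made as inactive precursors that are carried to endosomes and lysosomes, largely by mannose 6-phosphate receptors, and become active there as the pH falls and their propeptide is cut off. Cathepsin D (Ctsd) is an aspartic protease and cathepsin A (Ctsa) a serine carboxypeptidase, while the other members are cysteine proteases. Cathepsins B, L, S and K (Ctsb, Ctsl, Ctss and Ctsk) cut inside protein chains, cathepsins C, H and Z (Ctsc, Ctsh and Ctsz) mainly trim chain ends, and cathepsin W (Ctsw) belongs to killer lymphocytes. In the lung these enzymes are known for protein turnover in alveolar macrophages, for trimming the class II invariant chain in antigen-presenting cells, for matrix breakdown and for processing surfactant proteins. Cystatins and some serpins hold them in check.

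RefSeq promoter sequences (GRCm38.p6) were on hand for 7 of the 10 members, and none for Ctsb, Ctsh and Ctsw. The 250 bases before the RefSeq start are shown for 3 genes whose windows hold no annotated exon: the neighbours Ctsk and Ctss, whose highest means were both in alveolar macrophages, for Ctss with interstitial macrophages overlapping, and Ctsc, the member whose profile over cell types was closest to that of Ctss. They are written 5′ to 3′ on the strand of the gene, and capitals mark motif matches. The Ctsk window is chr3:95498960-95499209, the Ctss window chr3:95526536-95526785 and the Ctsc window chr7:88277835-88278084, all on the plus strand. The Ctss and Ctsc windows end directly before the gene start of the GENCODE M21 annotation. The Ctsk window ends short of its GENCODE start at 95499256, so what is said of it holds for the RefSeq start only.
Ctsk: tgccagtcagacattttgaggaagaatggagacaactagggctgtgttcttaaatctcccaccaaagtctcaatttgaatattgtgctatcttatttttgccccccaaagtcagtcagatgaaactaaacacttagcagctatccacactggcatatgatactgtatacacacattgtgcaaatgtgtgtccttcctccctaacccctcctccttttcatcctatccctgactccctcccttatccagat
Ctss: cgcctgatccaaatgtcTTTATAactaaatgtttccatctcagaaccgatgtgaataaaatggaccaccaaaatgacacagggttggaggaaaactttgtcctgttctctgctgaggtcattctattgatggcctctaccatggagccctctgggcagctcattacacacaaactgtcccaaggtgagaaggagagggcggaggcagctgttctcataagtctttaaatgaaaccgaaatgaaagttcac
Ctsc: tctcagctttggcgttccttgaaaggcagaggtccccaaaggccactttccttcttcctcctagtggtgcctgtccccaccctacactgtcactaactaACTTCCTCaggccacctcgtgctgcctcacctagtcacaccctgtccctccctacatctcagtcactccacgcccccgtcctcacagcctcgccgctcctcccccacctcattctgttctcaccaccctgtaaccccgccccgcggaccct
The motifs searched on both strands were the E-box core CACGTG, the PU.1 core GAGGAAGT, the TATA box TATAAA and the CLEAR element of lysosomal genes, which was searched in a longer form that contains the E-box core. The Ctsc window holds the PU.1 core on the opposite strand, 151 bases before the start, and 2.44% of 32851 RefSeq windows of this length hold it. The Ctss window holds TATAAA on the opposite strand, 233 bases before the start (12.4% of windows), and the Ctsk window holds none of these motifs. The E-box core stands in windows of Ctsa, Ctsd and Ctsl (6.02% of windows), and the CLEAR element in no window of a member (0.240% of windows). The Ctsk window has 0 CG pairs, the Ctss window 4 and the Ctsc window 9. A match is a match of letters, not a measured binding site.

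All members are protein-coding in the GENCODE M21 annotation of the mouse genome (GRCm38). Ctsa lies at chr2:164832873-164841032 (plus strand), Ctsz at chr2:174427493-174439039 (minus), Ctsc at chr7:88278085-88310888 (plus) and Ctsd at chr7:142375911-142388038 (minus). Ctsh lies at chr9:90054152-90076089 (plus), Ctsl at chr13:64359337-64370890 (minus), Ctsb at chr14:63122462-63145923 (plus) and Ctsw at chr19:5465043-5468507 (minus). Ctsk at chr3:95499256-95509362 and Ctss at chr3:95526786-95556403 share the plus strand, with 17423 bases between the end of Ctsk and the start of Ctss. Ctsa overlaps Neurl2 and Pltp, and Ctsb, Ctsw and Ctsz overlap Fdft1, Fibp and Nelfcd, each on the opposite strand. Ctsc and Ctsl overlap the noncoding genes Gm26522 and Gm47123 on the opposite strand, and Ctsd, Ctsl and Ctss overlap the gene models Gm49369, Gm49230 and Hmgb1-ps5 on their own strand. The sources used here do not say how reads in such overlaps were counted, so these genes carry that uncertainty, which Ctsh and Ctsk do not.

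The matrices held between 56218178 and 62406681 unique molecular identifiers (UMIs) per library, and 10757 to 13515 cells per library were kept, 47680 in all. Median UMIs per kept cell were 3704, 2839, 2359 and 2361, higher in both GAL libraries than in both WT libraries. Libraries shared 107 to 149 cell barcodes per pair. Galt was at 13.4, 10.6, 11.4 and 11.4 CPM (UMIs scaled to a common total), which did not separate the groups, and without the place of the edit this level does not check the labels. Cells were placed in types by gates on marker genes that include no cathepsin. Of the kept cells, 38769 (81.3%) passed 1 of 32 gates, and 20 gates had at least 30 cells in every library. A gate is a cutoff on a count of markers, and 6529 gated cells (16.8%) had only the minimum of 3. Alveolar macrophages had a median of 144 UMIs of their own markers and 9 of markers of other lineages, and NK cells, of which 41.1% had only the minimum, 7 and 4. UMIs were summed per gate and library, and levels are CPM of those sums. Log2 differences come from edgeR, which rescales the sums (TMM), so between gates they can differ from the ratios of the CPM beside them. Differences between gates come from 1 fit to all 20 gates, so their SE, intervals and p-values rest on spread pooled over gates. For a gate that was uneven between libraries, such as interstitial macrophages, they can understate the spread.

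Most members were richest in mononuclear phagocytes. When edgeR compared each gate with the mean of the others, with library as a block and an adjusted p under 0.05 as the threshold, 9 of 10 members were higher in the alveolar macrophage gate, where 38.5% of 13497 genes were higher. The same 9 of 10 were higher in the interstitial macrophage gate (29.3% of genes), and Ctsw was not called in either. In classical monocytes 8 of 10 were higher (23.8% of genes), as were 8 of 10 in nonclassical monocytes (23.3%), with Ctsk and Ctsw not called. Neutrophils had 7 of 10 higher (28.1%), without Ctsc, Ctsk and Ctsw.

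Dendritic cells were split. Type 2 cells had 6 of 10 higher (28.8% of genes) and Ctsd and Ctsl lower (18.3%). Type 1 cells had 4 of 10 higher, Ctsc, Ctsh, Ctss and Ctsz (25.8%), and 4 of 10 lower, Ctsa, Ctsb, Ctsd and Ctsl (17.4%). Migratory cells had Ctsh, Ctss and Ctsz higher (22.1%) and Ctsa, Ctsd and Ctsl lower (14.9%). In each of the 3 T cell gates 9 of 10 members were lower, against 19.3% of genes in CD4, 21.9% in CD8 and 20.6% in other T cells. Ctsw was higher in each of them, beside 28.8%, 27% and 32.3% of genes. NK cells had Ctsd and Ctsw higher (23.2%) and 6 of 10 lower (18.2%), and B cells had Ctsh and Ctss higher (34.1%) and 4 of 10 lower (23.7%).

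Structural cells had few members above the mean. Alveolar and adventitial fibroblasts each had Ctsb, Ctsk and Ctsl higher (39.1% and 38.4% of genes) and 4 of 10 lower (22.3% and 21.7%). Ctsl was the member called higher in general capillary cells (34.7%), aerocytes (27.4%) and smooth muscle cells (25.8%), where 8, 7 and 7 of 10 were lower (20.1%, 20.8% and 18.5%). Venous endothelial cells had Ctsh higher (17.7%) and 6 of 10 lower (13.7%). Ciliated cells had Ctsh and Ctsk higher (30.8%) and 6 of 10 lower (25.2%).

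**Figure D1:**
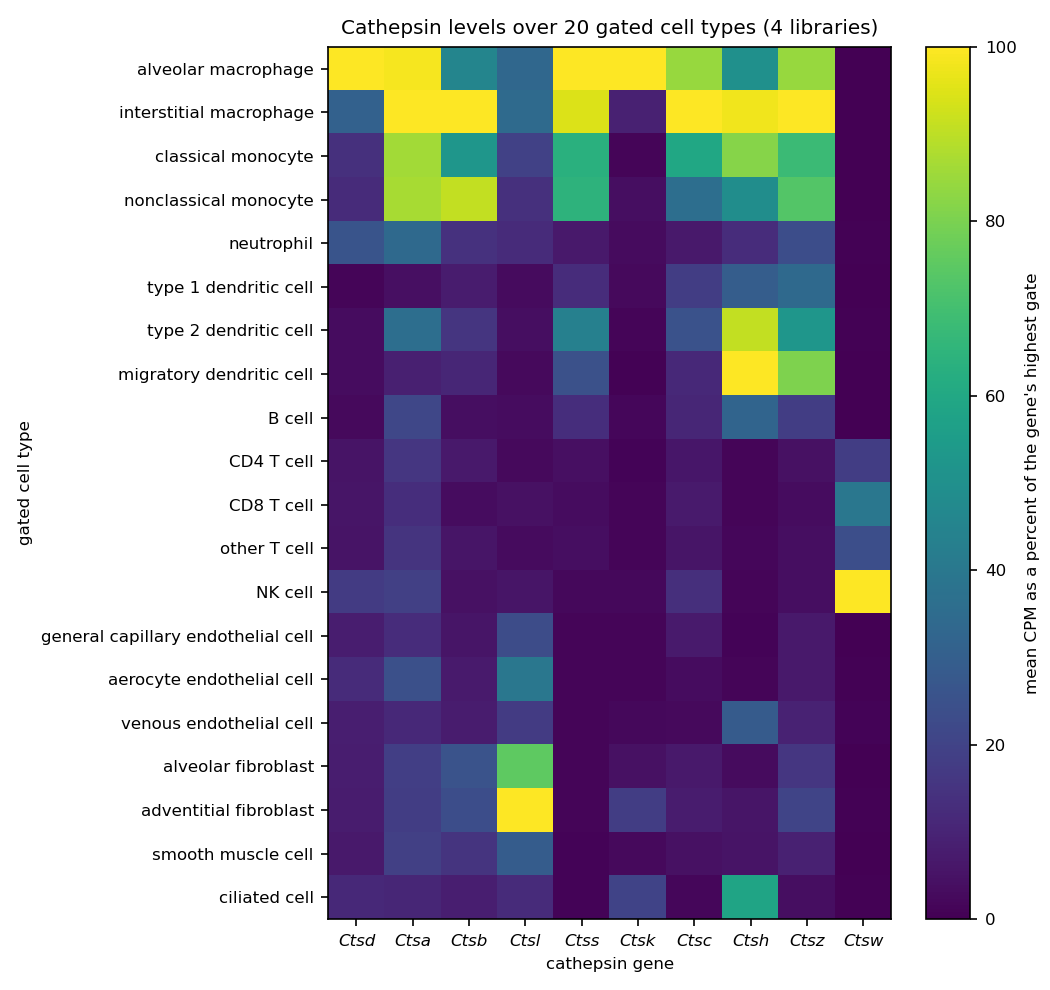
Mean CPM over 4 libraries for each cathepsin (columns) in 20 gated cell types (rows), as a percent of the gene's own highest gate (colour, 0 to 100). Most columns are brightest in the macrophage and monocyte rows, Ctsl is brightest in adventitial fibroblasts and Ctsw in NK cells.

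Alveolar macrophages held much of the cathepsin RNA recovered from the lung. They contributed 26.9% ± 6.56 (SD, n = 4 libraries) of all UMIs but 83.1% of Ctsk, 75.01% of Ctsd, 65.1% of Ctss, 59.6% of Ctsc, 54.5% of Ctsa and 52.1% of Ctsz UMIs. Their shares of Ctsb (43.2%), Ctsh (38.1%) and Ctsl (34.9%) were smaller, and their share of Ctsw was 1.07%. Interstitial macrophages, with 4.77% of all UMIs, held 16.7% of Ctsb, 12.9% of Ctsh and 11.96% of Ctsc UMIs. Adventitial and alveolar fibroblasts held 15.2% and 13.6% of Ctsl. Ctsw UMIs lay in other T cells (24.4%), NK cells (24.04%), CD8 T cells (17.9%) and CD4 T cells (10.7%), and 15.2% lay in cells that passed no gate.

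Cathepsin D, the aspartic protease of bulk protein breakdown in lysosomes, had its highest level in alveolar macrophages, at 3053, 3244, 2819.8 and 2975 CPM. Interstitial macrophages came next at 531, 1465, 1063 and 719 CPM, and the gates did not overlap. The difference was 1.60 ± 0.18 (log2, SE, edgeR adjusted p = 6.98e-12), in a contrast where 22.7% of genes were higher in alveolar macrophages. Neutrophils followed at 737, 890.2, 773 and 751 CPM and then NK cells at 619, 489.99, 467 and 507 CPM. Neutrophils lay above NK cells without overlap, and NK cells were the highest of the lymphocyte gates. Against CD8 T cells (166, 169, 169.9 and 160.3 CPM) Ctsd was 1.32 ± 0.20 higher in NK cells on the log2 scale (edgeR adjusted p = 5.94e-08, with 10.1% of genes higher). The contrasts between lymphocyte gates for Ctsd, Ctss, Ctsb and Ctsl were chosen after the levels were seen. Structural cells were intermediate, with 374 ± 51.2 CPM (SD, n = 4) in aerocytes, the endothelial cells of the gas-exchange capillaries, and 349 ± 35.4 in ciliated cells. Type 1 dendritic cells were lowest at 45.4 ± 20.98 CPM.

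Cathepsin A, which also shields β-galactosidase and neuraminidase in the lysosome, stood at similar levels in macrophages and monocytes. Interstitial macrophages had 343, 318, 304 and 342 CPM and alveolar macrophages 338, 311, 291 and 348 CPM. The gates overlapped, and their difference of 0.13 (log2, 95% interval -0.088 to 0.35) did not pass the test. Nonclassical (283 ± 13.2 CPM) and classical monocytes (282 ± 26.3) overlapped with alveolar macrophages and with each other. Dendritic cells were unequal, with 118 ± 6.74 CPM in type 2 cells, 28.1 ± 10.8 in migratory cells and 12.97 ± 4.70 in type 1 cells, the lowest of the 20 gates. Type 1 dendritic cells stood at -2.28 ± 0.15 (log2, edgeR adjusted p = 1.01e-23) relative to the mean of the other gates.

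Cathepsin B, an endosomal protease that cuts both chains and chain ends, was highest in interstitial macrophages (1985, 1643, 1722 and 1639.7 CPM) and nonclassical monocytes (1858, 1490.2, 1305 and 1693 CPM). These ranges overlapped, and the difference of 0.17 (log2, 95% interval -0.099 to 0.43) was not called, in a contrast where 18.5% of genes were higher. Classical monocytes had 919 ± 139 CPM and alveolar macrophages 793 ± 48.1, so for Ctsb the interstitial gate stood above the alveolar gate, opposite to Ctsd. Alveolar and adventitial fibroblasts had 447 ± 64.7 and 415 ± 37.5 CPM, and exceeded the mean of the other gates by 0.86 ± 0.092 and 0.86 ± 0.092 (log2). CD8 T cells were lowest at 60.99, 57.2, 69.5 and 55.4 CPM. Against CD4 T cells (122, 123, 141 and 86.1 CPM), CD8 T cells fell by 0.84 ± 0.16 on the log2 scale (edgeR adjusted p = 6.45e-05).

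Cathepsin L, which degrades matrix and antigens, had its peak outside the blood-derived cells. Adventitial fibroblasts had 739, 757, 611 and 932 CPM and alveolar fibroblasts 651, 563, 456 and 609 CPM. Adventitial cells were higher in each of the 4 libraries although the ranges overlapped, by 0.52 ± 0.16 (log2, edgeR adjusted p = 0.0103, with 9.91% of genes higher). Without WT replicate 1 the edgeR adjusted p was 0.0619, and without WT replicate 2 it was 0.109. Aerocytes had 302 ± 48.3 CPM, interstitial macrophages 264 ± 37.6, alveolar macrophages 255 ± 11.1 and smooth muscle cells 221 ± 53.4, and neighbours in this order overlapped. The general capillary gate (178 ± 35.6 CPM) was also above the mean of the others, by 0.69 ± 0.12 (log2, edgeR adjusted p = 2.46e-07). T and NK cell gates averaged 19.1 to 42.3 CPM. CD8 T cells exceeded CD4 T cells by 0.91 ± 0.24 (log2, edgeR adjusted p = 0.00615, with 3.07% of genes higher).

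Cathepsin S, which removes the last piece of the invariant chain from class II molecules, had its highest means in macrophages and monocytes. Dendritic cells and B cells followed. Alveolar macrophages had 2927, 2885, 3485 and 3109 CPM and interstitial macrophages 1809, 3908, 3641 and 2391 CPM. The ranges overlapped, and the fitted log2 difference had a 95% interval of -0.37 to 0.37. Nonclassical and classical monocytes were close to each other at 2003 ± 61.6 and 1966 ± 132 CPM. Type 2 dendritic cells had 1346 ± 88.4 CPM, migratory dendritic cells 767 ± 39.1 and type 1 dendritic cells 388 ± 37.8, and these ranges did not overlap. B cells, at 412 ± 21.3 CPM, were the lymphocyte gate above the mean of the others (1.07 ± 0.11 on the log2 scale, edgeR adjusted p = 1.33e-13). NK cells were lowest among lymphocytes at 33.2, 73.3, 92.4 and 69.5 CPM, and fell by 1.06 ± 0.21 on the log2 scale against CD8 T cells (edgeR adjusted p = 4.85e-05).

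Cathepsin K, best known as the collagen-cutting protease of osteoclasts, was concentrated in alveolar macrophages, at 385, 439.7, 671 and 423 CPM. Their mean was 49.7 times the median over the 20 gates, against 26.03 times for Ctss and 12.5 times for Ctsd, and WT replicate 1 was the highest library. Ciliated cells came next at 88.5, 81.7, 74.6 and 138 CPM, then adventitial fibroblasts at 91.4, 96.9, 71.9 and 87.1 CPM, and these overlapped. Alveolar macrophages exceeded ciliated cells by 2.62 ± 0.32 (log2, edgeR adjusted p = 3.34e-11, with 30.8% of genes higher). Interstitial macrophages were at 44.7 ± 43.3 CPM and alveolar fibroblasts at 22.5 ± 4.16 CPM, and the other 15 gates averaged 3.32 to 18.1 CPM.

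In droplet data, free RNA can give UMIs to cells that do not express a gene, and the markers of alveolar macrophages give a yardstick for it. Summed over 8 markers, they stood in the 5 lymphocyte gates at 1.03% to 1.38% of their alveolar macrophage level, and Ctsk stood there at 1.05% to 1.92%. Ctsk in lymphocytes was thus near the yardstick. Chil3 weighed far more in that sum than Krt79 or Fabp1, with means of 15621, 551 and 350 CPM in alveolar macrophages. In adventitial fibroblasts the markers were at 0.884% and Ctsk at 19.3%, and in ciliated cells at 3.16% and 21.4%, so Ctsk in both gates lay above it. At least 1 Ctsk UMI was found in 83.4% of alveolar macrophages, 50.96% of ciliated cells, 28.98% of adventitial fibroblasts and 1.54% of B cells, whose median depths were 9936, 7503, 5456 and 1867 UMIs. With each cell thinned to 1000 UMIs the shares were 32.8% of alveolar macrophages, 7.15% of adventitial fibroblasts and 0.742% of B cells.

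**Figure D2:**
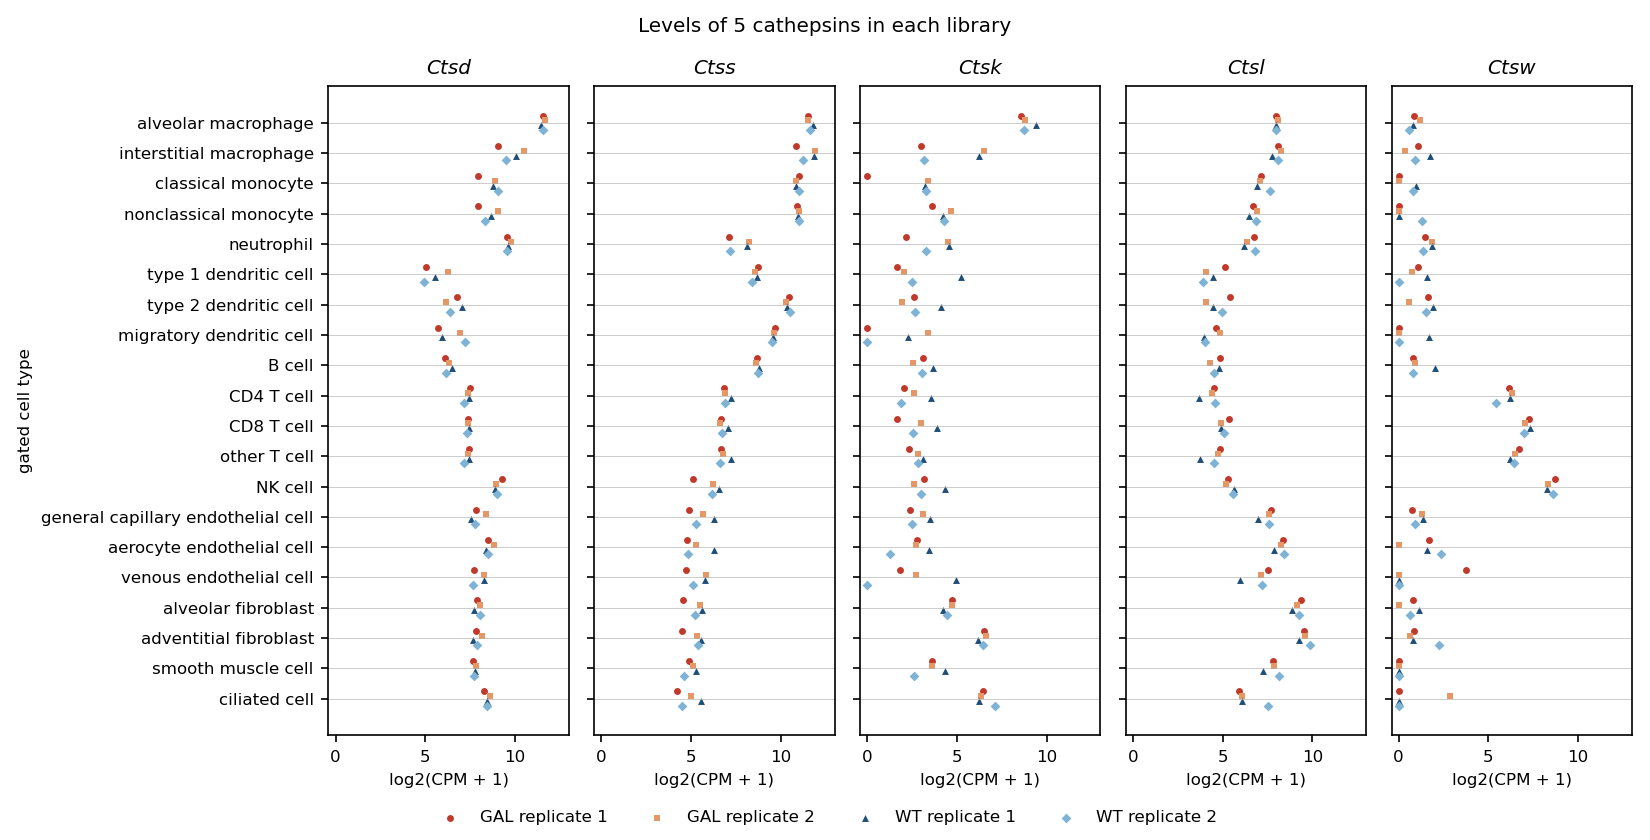
Each point is 1 library's level, log2(CPM + 1), of Ctsd, Ctss, Ctsk, Ctsl or Ctsw in a gated cell type (rows). Ctsk separates alveolar macrophages from every other row, Ctsw separates NK and T cells, and the points of the interstitial macrophage row are spread for Ctsd, Ctss and Ctsk.

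Cathepsin C, or dipeptidyl peptidase I, activates granzymes and the serine proteases of neutrophils. Its RNA was highest in macrophages, at 835, 567, 609 and 720.2 CPM in interstitial and 539, 589, 635 and 545 CPM in alveolar macrophages. The gates overlapped, and their difference of 0.33 (log2, 95% interval -0.025 to 0.69) was not called. Classical monocytes had 408 ± 100.5 CPM and nonclassical monocytes 247 ± 32.4. NK cells had 115, 74.998, 65.2 and 112 CPM and neutrophils 41.6, 74.04, 45.7 and 25.6 CPM, and neither gate was called against the mean of the others by edgeR (adjusted p = 0.657 and 0.793). Alveolar type 2 cells, the surfactant makers, were at 490.4 CPM in GAL replicate 1 and at 772 and 559.9 CPM in the WT libraries. GAL replicate 2 held 1 such cell, so this gate was not tested.

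Cathepsin H, an aminopeptidase that takes part in the maturation of surfactant protein B, stood in those alveolar type 2 cells at 1390.01 CPM in GAL replicate 1 and at 926 and 1186 CPM in the WT libraries. These values rest on 234, 60 and 49 cells and lie above every library of the tested gates. Of the tested gates, migratory dendritic cells were highest (589.5, 489, 520.4 and 776 CPM). Interstitial macrophages (580.4 ± 70.4), type 2 dendritic cells (539 ± 104) and classical monocytes (486 ± 85.9) overlapped with them. In the edgeR fit migratory dendritic cells exceeded interstitial macrophages by 0.27 (log2, 95% interval -0.016 to 0.56), which was not called, while 16.7% of genes were. The ratio of the mean CPM of these gates was 1.02. Ciliated cells (347 ± 49.98 CPM) and B cells (191 ± 37.9) were above the mean of the other gates by 2.03 ± 0.12 and 1.47 ± 0.097 (log2). Endothelial gates were uneven: venous cells had 237, 143, 121 and 179 CPM, aerocytes 8.26 ± 3.89 and general capillary cells 6.62 ± 1.08. Venous cells lay above the mean of the other gates (1.05 ± 0.16, edgeR adjusted p = 3.07e-08) and the capillary gates below it.

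Cathepsin Z, a carboxypeptidase, was shared by macrophages, monocytes and dendritic cells. Interstitial macrophages had 615, 1000.5, 1055 and 733 CPM, alveolar macrophages 676, 729.9, 748 and 725 and migratory dendritic cells 733, 629.7, 659 and 729.9. These ranges overlapped, and interstitial macrophages were above alveolar macrophages in 3 of 4 libraries. They were called higher than alveolar macrophages at 0.35 ± 0.15 (log2, edgeR adjusted p = 0.0482, with 22% of genes higher). The edgeR adjusted p was 0.541 without WT replicate 1, where the difference was 0.15, and 0.0941 without GAL replicate 2. Type 2 and type 1 dendritic cells had 446 ± 39.2 and 289 ± 39.8 CPM. CD8 T cells, NK cells and ciliated cells had the lowest means, at 29.8 ± 3.66, 30.5 ± 3.82 and 32.1 ± 15.5 CPM.

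Cathepsin W, a protease of cytotoxic lymphocytes, was the member called higher in each of the T and NK cell gates than in the mean of the others. NK cells had 422, 315, 309.8 and 393 CPM, CD8 T cells 153, 132, 158 and 128, other T cells 104, 88.1, 71.3 and 85.1 and CD4 T cells 68.99, 77.7, 73.7 and 41.2. NK cells lay above CD8 T cells in each library, by 1.02 ± 0.17 (log2, edgeR adjusted p = 1.36e-06), and CD8 T cells lay above CD4 T cells by 1.23 ± 0.18 (log2, edgeR adjusted p = 4.23e-07). The other 16 gates averaged 3.16 CPM or less. A Ctsw UMI was found in 52.2% of NK cells, 34.4% of CD8 T cells, 14.4% of CD4 T cells and 0.253% of B cells, at median depths of 1993, 3277, 2802 and 1867 UMIs. With cells thinned to 1000 UMIs the shares were 29.6%, 13.2%, 5.94% and 0.0505%.

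Of the 10 members, 5 (Ctsd, Ctsk, Ctsl, Ctsw and Ctsz) were thus called higher in their top gate than in the next, where the top gate was picked by the same counts. In the contrasts of top with next gate, 9.91% to 30.8% of all genes were higher. Over the mean log2(CPM + 1) of the 20 gates, the most similar pairs of members were Ctsc with Ctss (Pearson r = 0.90), Ctss with Ctsz (0.84) and Ctsc with Ctsz (0.79), while the neighbours Ctsk and Ctss stood at 0.095. These correlations are descriptions over gates that come from the same 4 libraries and differ in depth. Among 11000 other genes that reached 20 CPM in a gate, the closest to Ctss were Zfp992 (0.95), Pld4 (0.94) and Ms4a6d (0.93), and the closest to Ctsc Zfp992 (0.93), Zfp991 (0.92) and Sh3bp2 (0.90). The profile of Ctsb was nearest to those of Hmox1 (0.93), Fam20c (0.90) and Acp2 (0.90), the last a lysosomal acid phosphatase. For Ctsd they were Dmxl2 (0.82), Atp6v1e1 (0.82) and Ap5s1 (0.82), of which Atp6v1e1 encodes a subunit of the proton pump. For Ctsz they were Hexa (0.92), which encodes a lysosomal hexosaminidase subunit, Ifi207 (0.91) and Guca1a (0.91). For Ctsl they were Pld1 (0.92), Scarb2 (0.92) and Mcfd2 (0.90), with Scarb2 a protein of the lysosome membrane. Those of Ctsk were Clmn (0.92), Agmo (0.88) and Egr2 (0.87), and those of Ctsa the gate marker Clec4a3 (0.89), Tlr8 (0.89) and G6pdx (0.87). Ctsh was nearest to Eps8 (0.90), Ifi30 (0.87), a thiol reductase of antigen processing, and Zfp667 (0.87). Ctsw was nearest to Gm2682 (0.99), Ifng (0.99) and Cd160 (0.98).

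The interstitial macrophage gate was not uniform over libraries, in a way that crossed the groups. Ctsk there was at 7.14, 89.002, 74.8 and 7.87 CPM, and Ctsd, Ctss and Ctsz were likewise lower in GAL replicate 1 and WT replicate 2. Ctsa, Ctsc and Ctsh were higher in those libraries than in the other libraries, and Ctsb did not divide the libraries this way. Summed alveolar macrophage markers in the gate moved with Ctsk, at 137, 967, 810.2 and 128 CPM, most of it Chil3 (98.8, 865, 746 and 95.3 CPM), while Krt79 was at 6.04, 5.58, 2.95 and 3.50 CPM and Fabp1 at 6.04, 8.09, 4.92 and 8.74 CPM. None of the 8 markers was at 0 in all libraries. Chil3 was also uneven in the alveolar macrophage gate, at 8436, 19185, 26095 and 8770.1 CPM. Folr2, a marker of perivascular macrophages, ran the other way in the interstitial gate at 513, 68.1, 153 and 275 CPM, as did Lyve1 at 264, 18.1, 48.5 and 182 CPM.

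To describe this, the gate was divided, after the values were seen, into cells with and without a UMI of Folr2, Lyve1 or Cd163, of which Folr2 and Cd163 are also markers of the gate. Cells with one made up 58.9%, 20.6%, 33.6% and 42.1% of the gate. In cells without one, Ctsk was at 7.31, 106, 99.96 and 13.02 CPM and Ctsd at 425, 1485, 1242 and 425 CPM. In cells with one, Ctsk was at 7.03, 17.6, 18.1 and 1.89 CPM and Ctsd at 594, 1379.7, 660.3 and 1061 CPM. GAL replicate 2 and WT replicate 1 were thus the higher libraries for Ctsk on both sides of the split, and for Ctsd among cells without these genes. Ctsb was higher in cells with one of the genes (2345, 2029, 1985 and 2060.3 CPM) than in cells without (1387, 1552, 1605 and 1277 CPM), with no overlap. Ctss was lower in them in every library, at 1381, 3073, 2042 and 2117 against 2519.5, 4105, 4353 and 2626 CPM. Fabp5, a lipid carrier, was at 64.3, 994, 1312 and 47.2 CPM in cells without the genes. No test was made on this split, and the part of these genes in the spread of the cathepsins was not tested.

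**Figure D3:**
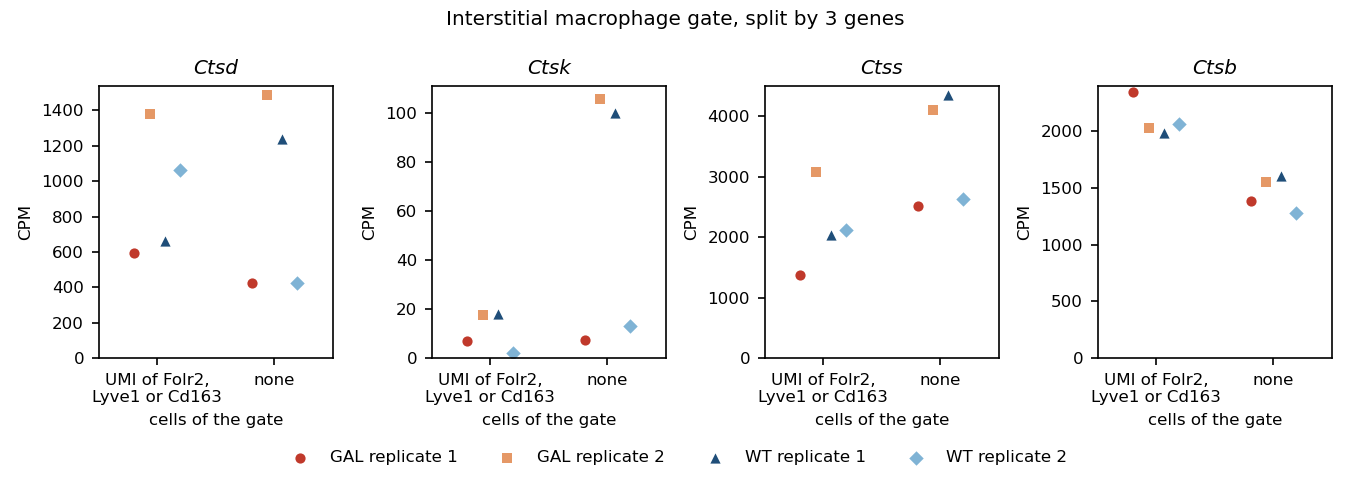
CPM of Ctsd, Ctsk, Ctss and Ctsb (vertical axes) in cells of the interstitial macrophage gate with and without a UMI of Folr2, Lyve1 or Cd163, 1 point per library. Ctsk is high in GAL replicate 2 and WT replicate 1 among cells without these genes, and Ctsb is higher in every library among cells with them.

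The comparison of GAL with WT asked whether the edit goes with a change in these genes. No member was called in the whole lung, where edgeR called 0% of 16818 genes at an adjusted p under 0.05 and 922 genes (5.48%) had an unadjusted p under it. No member was among the latter. DESeq2 called 31 genes, and edgeR called 647 genes without GAL replicate 2 and 21 without GAL replicate 1, none of them a member. Ctsk was at 95.9, 138, 265 and 137 CPM, a GAL over WT difference of -0.81 ± 0.43 (log2, SE, edgeR adjusted p = 0.767). WT replicate 1 alone stood apart, GAL replicate 2 and WT replicate 2 were alike, and without single libraries the difference ran from -1.25 to -0.19. Ctss was at 829, 1329.7, 1797 and 1255 CPM (-0.51 ± 0.37), Ctsd at 820.2, 1163, 1237 and 1069 (-0.23 ± 0.28) and Ctsz at 274, 390.2, 467 and 353 (-0.32 ± 0.31), again with overlapping groups. Ctsc was at 210.2, 256, 327 and 243 CPM (-0.31 ± 0.27), Ctsb at 469, 481, 537 and 467 (-0.10 ± 0.20) and Ctsw at 19.4, 21.5, 16.8 and 30.1 (-0.19 ± 0.29), and these overlapped too. Ctsl was the member with a positive difference, at 271, 194, 169 and 199 CPM (0.31 ± 0.19). Ctsa, at 132, 154, 171 and 168 CPM (-0.26 ± 0.19), and Ctsh, at 208, 188, 225 and 217 CPM (-0.18 ± 0.16), were lower in both GAL libraries than in both WT libraries, as were 16.1% of all genes, and no member was higher in both (18.1% of genes). The median over the members was -0.24, beside 0.013 over all genes tested.

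These whole-lung sums mix cell types, and fewer cells of a type and less RNA per cell cannot be told apart in them. Alveolar macrophages were 9.74%, 10.8%, 14.7% and 11.4% of kept cells and held 19.2%, 25.02%, 34.8% and 28.6% of UMIs, lower in both GAL libraries than in both WT libraries. When every gate was given the same weight in every library, the differences moved nearer to 0 for all members but Ctsw. That weighting used only cells of the 20 tested gates, whereas the sums as recovered used all kept cells. The mix and the set of cells thus changed together, and their parts in the shift were not separated. Ctsk was then at -0.48 (95% interval -1.18 to 0.22), Ctss at -0.21 and Ctsa at -0.0078. Ctsd, Ctsb and Ctsw changed sign, to 0.056, 0.024 and 0.25. No member was called under that weighting.

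**Figure D4:**
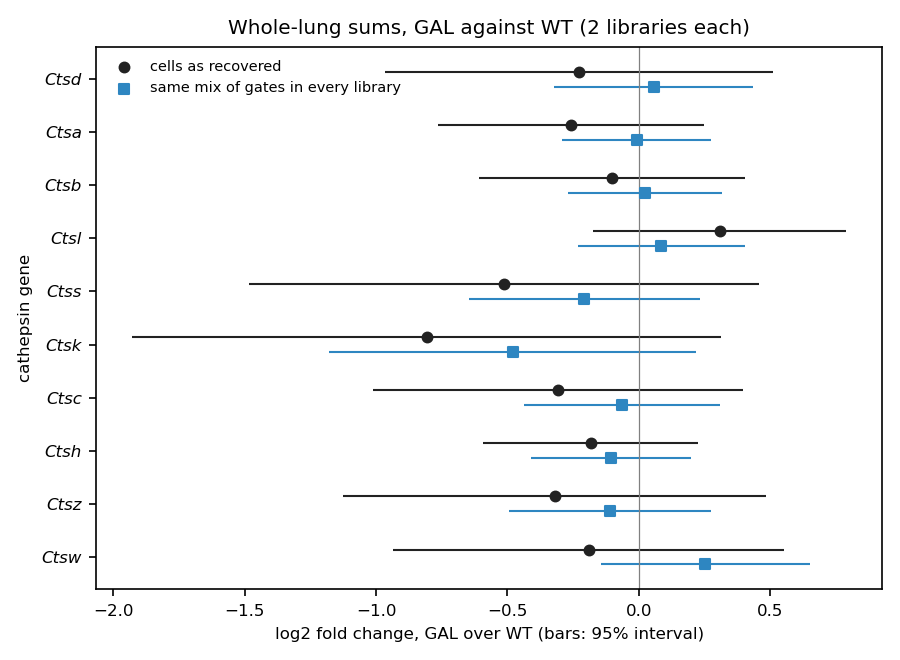
Log2 fold change of GAL over WT for each cathepsin in whole-lung sums (points) with 95% intervals (bars), for cells as recovered and with the same mix of gates in every library. The same mix holds only cells of the 20 tested gates, and the cells as recovered are all kept cells. Every interval includes 0, and Ctsk lies farthest below 0 in both.

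Within gates, 169 of 200 pairs of member and gate had enough counts to be tested, and edgeR and DESeq2 called none of them, while edgeR called 8 of 151195 gene tests (0.00529%) in the same gates. The members' differences ran from -0.93 to 1.06 on the log2 scale with a median of 0.071, and the smallest adjusted p was 0.59. Alveolar macrophages were the best sampled myeloid gate, with 1068, 1159, 1834 and 1547 cells. There Ctsd differed by 0.19 ± 0.20, Ctsl by 0.12 ± 0.17, Ctss by -0.12 ± 0.20 and Ctsk by -0.35 ± 0.29 (log2, GAL over WT). Ctsa and Ctsb stood at 0.083 and 0.079 and Ctsh at -0.073. Ctsd and Ctsw were higher there in both GAL libraries than in both WT libraries (11.6% of genes) and Ctss was lower (16.7% of genes).

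An unadjusted p under 0.05 was reached by 3 of the 169 pairs (1.78%), against 3.57% of all gene tests in these gates. Ctsl in ciliated cells was at 58.5, 65.9, 66.3 and 185 CPM (-0.93, edgeR unadjusted p = 0.0144, adjusted p = 0.887), with WT replicate 2 alone high and both GAL libraries below both WT libraries (26.7% of genes). Ctsb in migratory dendritic cells was at 243, 212, 155 and 127 CPM (0.66, edgeR unadjusted p = 0.0318, adjusted p = 1), with both GAL libraries above both WT libraries (12.5% of genes). Ctsc in neutrophils was at 41.6, 74.04, 45.7 and 25.6 CPM (0.87, edgeR unadjusted p = 0.035, adjusted p = 1), and the groups overlapped. Leaving out 1 library called Ctsl in ciliated cells without WT replicate 1 (-1.39, edgeR adjusted p = 0.00673) and Ctsc in neutrophils without GAL replicate 1 (1.20, edgeR adjusted p = 0.0456). In these fits edgeR called 0.365% and 0.595% of all gene tests in the gates. Ctsk in type 1 dendritic cells, too low for the test with all libraries, was at 2.18, 3.21, 36.1 and 4.69 CPM. It was called without the filter on low counts (-3.00) and without GAL replicate 1 (-2.84) or WT replicate 2 (-3.58). WT replicate 1 also had the most alveolar macrophage marker UMIs in that gate, at 200.3, 184, 713 and 199.9 CPM, and their part in the Ctsk value was not tested.

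Ctsw had a positive difference in all 5 gates where it could be tested, from 0.041 in CD8 T cells to 0.78 in alveolar macrophages, where its highest library was at 1.29 CPM. Ctsd was positive in 17 of 20 gates, Ctsl in 16 of 20 and Ctsb in 15 of 20. Ctsa was positive in 13 of 19, Ctsc in 11 of 18, Ctsh in 9 of 17 and Ctsk in 5 of 11. In all, 106 of the 169 pairs were positive. Median differences over all genes ran from -0.016 in migratory to 0.015 in type 1 dendritic cells. Ctss was negative in 12 of 19 and Ctsz in 12 of 20. Gates share their libraries, so these counts are not independent. Both GAL libraries lay above both WT libraries in 23 of the 169 pairs (13.6%, against 12.6% of gene tests) and below in 15 (8.88%, against 17.6%). Ctsb had 6 such gates above and 1 below, and Ctss had 1 above and 5 below. A test of whether the GAL effect differed among gates, added after the data were seen, called no member (edgeR, smallest unadjusted p = 0.258, for Ctsw) and 0.00741% of 13497 genes.

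Genes that deliver, restrain or receive the work of cathepsins were followed as 5 lists. In the whole lung no gene of them was called by edgeR, and within gates edgeR called none of 735 pairs of gene and gate, with 35 pairs (4.76%) at an unadjusted p under 0.05, against 3.57% of all gene tests. Of the 150 pairs from the list of proteins that cathepsins cut, 20 (13.3%) were among these, and the gates share their libraries. That list also holds the class II genes H2-Aa and H2-Ab1, whose products carry the invariant chain. Over the whole lung and the gates together, DESeq2 called 2 of 774 list tests and 115 of 168013 gene tests in all. With no filter on low counts, edgeR called 28 of 1137 list tests (2.46%, against 0.262% of all gene tests). Without GAL replicate 1 edgeR called 26 of 830 (3.13%, against 0.550% of all gene tests), and without GAL replicate 2 it called 43 of 841 (5.11%, against 0.715% of all gene tests). Without WT replicate 1 it called 12 of 840 (1.43%, against 0.329% of all gene tests), and without WT replicate 2 it called 9 of 853 (1.06%, against 0.224% of all gene tests). These are counts of tests, so a gene called in several gates counts in each, and which genes were called is not given here. Of the list genes, Sftpc was at 561, 6.97, 133 and 90.1 CPM in neutrophils, its highest tested gate. Alveolar type 2 cells numbered 234, 1, 60 and 49 in the same libraries. The part of Sftpc in these counts was not tested. Whole-lung medians (log2, GAL over WT) were 0.32 for 3 tested of 13 other cathepsins, -0.011 for 13 of 16 inhibitors and -0.17 for 10 of 10 delivery and maturation genes. They were -0.041 for 16 of 16 genes of the lysosome membrane and its acidification. For 16 of 17 genes in the list of proteins that cathepsins cut the median was -0.13, beside 0.013 over all genes tested.

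The gates named for list genes are those with the highest mean, and their differences from the next gate were not tested. Among inhibitors, Cst3, which encodes secreted cystatin C, was highest in type 1 dendritic cells (25690.4 ± 3419 CPM). Cstb, the cytosolic cystatin B, was highest in interstitial macrophages (1056 ± 232 CPM). Serpinb9, the granzyme B inhibitor, was highest in NK cells (1029 ± 121 CPM, next migratory dendritic cells at 885) and Serpinb6a in adventitial fibroblasts (309.9 ± 44.4 CPM). These were also the top gates of Ctsw and Ctsl, and whether either serpin acts on those cathepsins was not tested. In the whole lung Cst3 was at 2738, 3013, 3323 and 2367 CPM and Cstb at 306, 473, 595 and 418 CPM, with overlapping groups. Of the other cathepsins, Ctso was highest in B cells (57.7 ± 7.10 CPM) and Ctsf in adventitial (37.3 ± 8.54 CPM) and alveolar fibroblasts (33.9 CPM).

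Of delivery genes, M6pr, a mannose 6-phosphate receptor, was highest in alveolar macrophages (252 ± 50.2 CPM), as was the sorting receptor Sort1 (216 ± 27.8 CPM). Whole-lung M6pr was at 114, 113, 145 and 153 CPM, lower in both GAL libraries (-0.41 ± 0.15, edgeR unadjusted p = 0.0433, adjusted p = 0.767). Lgmn, the legumain that matures several cathepsins, and Psap, the saposin precursor, had their highest means in interstitial macrophages, although type 1 dendritic cells were close for Psap (2764 against 2843 ± 1276 CPM). Psap in interstitial macrophages was at 1651, 4027, 3862 and 1830.2 CPM, with the same libraries low as for Ctsd and Ctss, while Lgmn was at 758, 694, 733 and 642 CPM. Lamp1, a lysosome membrane protein, was nearly level in interstitial macrophages (702 ± 59.1 CPM) and aerocytes (699 CPM), and Atp6v0c, a subunit of the proton pump, in interstitial macrophages (1143 ± 133 CPM) and classical monocytes (1103 CPM). Npc2, a cholesterol carrier, was highest in classical monocytes (1152 ± 144 CPM) and Cd63 in migratory dendritic cells (1091 ± 125 CPM).

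In the list of proteins that cathepsins cut, Cd74, the invariant chain trimmed by cathepsin S, was highest in type 2 dendritic cells (31319 ± 6241 CPM). So were H2-Aa (12301 ± 2143) and H2-Ab1 (12269.7 ± 1834). These encode the class II chains that the invariant chain is removed from, and are in the list for that reason. Sftpc, the surfactant protein C gene, was at 6667, 14.6, 1022 and 1295 CPM in the whole lung, beside 234, 1, 60 and 49 alveolar type 2 cells. The matrix genes Eln and Col1a1 were higher in both GAL libraries, with Eln at 211, 114, 60.5 and 55.05 CPM (1.45 ± 0.29, edgeR unadjusted p = 0.00481, adjusted p = 0.767) and Col1a1 at 219, 113, 72.9 and 69.9 CPM. Eln had its highest mean in smooth muscle cells and Col1a1 in adventitial fibroblasts. Adventitial fibroblasts were 5.10%, 3.11%, 2.43% and 2.86% of kept cells, higher in both GAL libraries. Smooth muscle cells were 1.69%, 0.586%, 0.305% and 0.807% of kept cells. Alveolar fibroblasts were 8.80%, 2.66%, 2.99% and 2.61%, and both of these gates were highest in GAL replicate 1. The part of these gates in the Eln and Col1a1 values was not tested. Of 58 list genes tested in the whole lung, 6 (10.3%, against 5.48% of all genes) had an unadjusted p under 0.05 by edgeR: Eln, Col1a1, M6pr and, with differences of 0.48 ± 0.14, -0.62 ± 0.18 and 2.23 ± 0.82, Igf2r, Serpinb1a and Mpo. Apart from M6pr, these were named after their values were seen. Mpo was near the floor in the whole lung, at 1.04, 0.263, 0.0794 and 0.188 CPM. In neutrophils, its highest gate, it was at 72.8, 0, 0 and 0.777 CPM, so GAL replicate 1 alone stood out.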

How the data were processed

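Single-cell RNA was measured in 4 mouse lung libraries, 2 GAL and 2 WT, with 56218178 to 62406681 UMIs each. The authors deposited raw UMI counts per gene and cell barcode. Per the submitters' processing notes, fastp, STAR, Seurat and GRCm38/mm10 were used; the annotation and the strand setting are not given in the sources used here. Barcodes below 500 UMIs, below 300 genes or above 20% mitochondrial UMIs were dropped. Scrublet (scanpy 1.11.5) scores marked doublets, and the top cells were removed at 0.8% per 1000 cells. A gate needed 3 markers of a type, and cells where a second lineage reached a share of 0.5 were left out. Counts were summed per gate and library, and tested with edgeR 4.0.16 (quasi-likelihood, TMM, filterByExpr, Benjamini-Hochberg over all genes tested; R 4.3.3), which was checked on simulated data. DESeq2 1.42.0, RLE scaling, no filter, no doublet removal, 1 more marker per cell, an equal mix of gates, thinning and leaving out each library were alternatives. With 2 libraries against 2, an exact permutation test cannot go below p = 0.333, so none was used. The named genes were the members, Galt and up to 4 genes of each list by whole-lung level. Every list gene called by edgeR outside these alternatives was also to be named, and none was called. For each member, the 3 genes most correlated with it over gates were named. Exceptions are marked. List genes called only under the alternatives were not named as such. The members and lists were chosen with earlier results of these data known.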

Additional observations from a re-analysis of the deposited data

How the results depend on the processing

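The whole-lung comparison called no member with edgeR or under DESeq2, RLE scaling, no filter on low counts, no doublet removal, an equal mix of gates or without any single library. Within gates no pair of member and gate was called, and 1 was called without the filter on low counts and 0 to 2 when 1 library was left out. For the lists, the count of 0 became 2 with DESeq2, 28 without the filter and 9 to 43 when 1 library was left out, with the highest count without GAL replicate 2. The number of members called higher in their top gate was 5, and 3 to 5 when 1 library was left out. Ctsc joined it with RLE scaling (0.45, edgeR adjusted p = 0.035) and without GAL replicate 2 (0.49, edgeR adjusted p = 0.0233). Ctsz left it without doublet removal (edgeR adjusted p = 0.0617) and with 1 more marker per cell (0.193). The whole-lung sign reversed for Ctsb under an equal mix (0.024) and without WT replicate 1 (range without 1 library -0.27 to 0.054), for Ctsd under an equal mix (0.056) and without GAL replicate 1 (-0.61 to 0.059), and for Ctsw under an equal mix (0.25) and without WT replicate 2 (-0.52 to 0.20). The Ctss difference between alveolar and interstitial macrophages (-0.00029) became 0.12 with 1 more marker, 0.15 without GAL replicate 2 and 0.16 without WT replicate 1, with a lowest value of -0.12 without GAL replicate 1. The cause was not tested for any of these. With cells thinned to 1000 UMIs, the top gate by share of cells with a UMI differed from that by CPM for Ctsb, Ctsh and Ctsz, among the 19 gates that could be thinned. Where 1 library of a group was left out, the lone library was assumed to vary like the others. No paired analysis was possible because the replicate numbers only name the libraries and pair none. With 2 libraries per group, intervals are wide, and low genes such as Ctsk outside alveolar macrophages rest on few UMIs.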

Other observations

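Several inhibitor and granule genes had their highest means outside the macrophage gates. Stfa2l1, a stefin of the cystatin family, was highest in neutrophils at 845 ± 189 CPM (SD, n = 4), with 669, 954, 1055 and 702 CPM in the libraries. Cst7, the cystatin F that restrains cathepsin C in killer cells, was highest in NK cells at 140.2 ± 19.02 CPM, as was Gzma, the granzyme A that cathepsin C activates, at 10307 ± 1459 CPM. Serpinb6b was at 786 ± 118 CPM in migratory dendritic cells and 670.2 in NK cells. Ctse, the intracellular aspartic protease cathepsin E, was at 7.85 ± 1.56 CPM in neutrophils and 5.38 in NK cells. The genes of this paragraph are given as levels, and their differences between gates were not tested.

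In neutrophils, Ctss was at 137, 301, 277 and 143 CPM, while summed alveolar macrophage markers in the same gate were at 169.8, 1156, 990.4 and 206 CPM. GAL replicate 2 and WT replicate 1 were the higher libraries for both. They were also the higher libraries for the marker Chil3 in alveolar macrophages (8436, 19185, 26095 and 8770.1 CPM). The sum in neutrophils was not divided by marker, and the part of the markers in the Ctss values was not tested.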
